A study of Mus musculus with 16 samples.

Results

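miR-149-3p is a guanine-rich microRNA cut from the 3′ side of the miR-149 hairpin, and its level was followed here in RNA from the culture supernatant of irradiated HCT116 cells. It was chosen because earlier values from these same arrays had shown it higher at 2 and 10 Gy, and its members were taken as every probe named hsa-miR-149-3p. It is 1 of 1205 human miRNAs on the array and 1 of the 283 that were bright enough to test, and it has 4 probes. HCT116 is an established human colorectal carcinoma line with wild-type p53. The groups were supernatants of cells given X-rays at 0, 2, 6 or 10 Gy and then kept for 72 h in RPMI1640 with fetal bovine serum. Each dose had 4 arrays, each from its own culture according to the series' design text, which does not list 2 Gy. Mouse is named as the organism in the labels. HCT116 is of human origin and the array was designed against human miRNAs, and levels are treated here as human. No array of medium without cells was analysed here, and the part of serum RNA in any level was not tested. From every sample 100 ng of RNA was labelled, so a level stands for a share of that RNA and not for an amount released. More cells releasing RNA and more RNA released per cell cannot be told apart in a supernatant.

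A miRNA hairpin is cut by DROSHA and DICER into a duplex of a 5p and a 3p strand, of which one is usually kept in an Argonaute protein while the other is degraded. The kept strand pairs with target mRNAs through its seed, bases 2 to 8. The hairpin of miR-149 lies inside the gene of glypican-1, a cell-surface heparan sulfate proteoglycan, and its 5p strand is usually regarded as the main product. The 3p strand has been reported as p53-responsive in human melanoma cells.

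The mouse counterparts of both strands and their hairpin are shown because the strands differ so widely in base composition and because the arms are compared below. They come from RefSeq on mouse build GRCm38.p6, plus strand, and the human strands may start or end at another base. Capitals mark the seed in the mature strands, and both mature strands in the hairpin.
mmu-miR-149-3p: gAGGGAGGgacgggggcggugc
mmu-miR-149-5p: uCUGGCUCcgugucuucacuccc
Mir149 hairpin: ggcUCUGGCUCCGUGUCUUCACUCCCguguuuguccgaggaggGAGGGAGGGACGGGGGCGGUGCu

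The 3p strand lies at chr1:92850421-92850442 and the 5p strand at chr1:92850381-92850403. The hairpin at chr1:92850378-92850443 is contained in Gpc1, at chr1:92831645-92860211. Guanine makes up 68.2% of the 22 bases of the mouse 3p strand and 17.4% of the 23 bases of the 5p strand. Of 1738 mouse mature miRNAs in the table, 4 (0.23%) have a guanine share at least as high as the 3p strand, itself counted, and the median share is 26.1%. The 3p strand holds 3 runs of GGG or longer, searched on the strand as printed, and 22 (1.27%) of those miRNAs, itself counted, hold at least as many. Its seed is shared by mmu-miR-1943-5p, mmu-miR-6967-5p and mmu-miR-7016-5p.

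miR-149-3p was higher on every array at 2 Gy and at 10 Gy than on any array at 0 Gy, and its mean at 6 Gy lay between. Levels are log2 of the signal after each array was divided by its own 75th percentile over 518 probes detected on all 16 arrays, so a value below 0 is dimmer than that percentile. At 0 Gy the 4 arrays gave -3.17, -3.31, -2.77 and -3.19. At 2 Gy they gave -2.37, -2.71, -2.41 and -2.44. At 6 Gy they gave -2.92, -2.87, -2.90 and -2.68, and at 10 Gy -2.40, -2.62, -2.47 and -2.43. All arrays at 2 and 10 Gy were above every array at 0 Gy, and 0 Gy replicate 3 stood above the other 3 unirradiated arrays.

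In rising order of dose the means were -3.11 ± 0.23, -2.48 ± 0.15, -2.84 ± 0.11 and -2.48 ± 0.09 (SD, n = 4 each). From lowest to highest the order was 0, 6, 2 and 10 Gy, and the means at 2 and 10 Gy did not differ beyond their spread. The difference was 0.63 ± 0.12 (SE, from the limma fit) at 2 Gy against 0 Gy, which is 1.55-fold. It was 0.27 ± 0.12, or 1.20-fold, at 6 Gy against 0 Gy, where 1 of the 4 arrays was above all the 0 Gy arrays. At 10 Gy against 0 Gy it was 0.63 ± 0.12, again 1.55-fold. These differences chose the miRNA and are given with no test.

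Between the irradiated doses the level was 0.36 ± 0.12 higher at 10 Gy than at 6 Gy, with no overlap of the 2 sets of arrays. It was -0.36 ± 0.12 at 6 Gy against 2 Gy, with overlap. The SD within a dose, pooled over the 4 doses, was 0.158 for miR-149-3p, against a median of 0.231 over the 283 tested miRNAs, of which 56 (19.8%) had a smaller one.

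**Figure D1:**
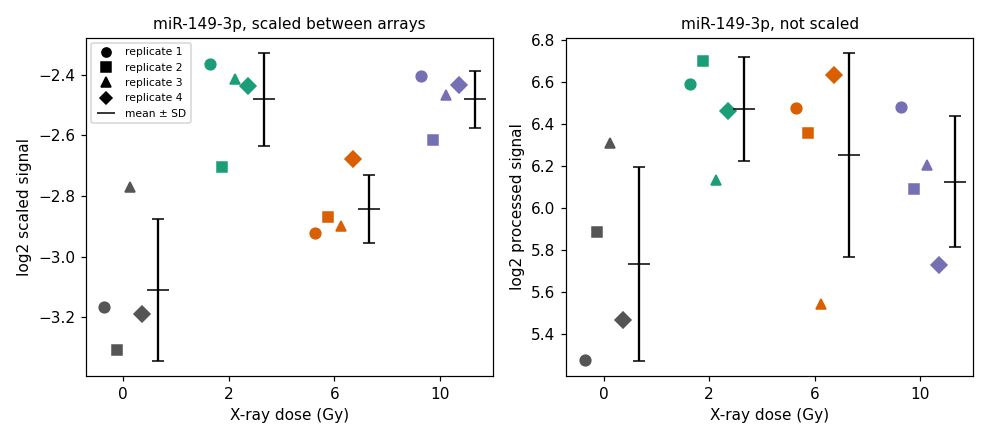
Level of miR-149-3p on each of the 16 arrays by X-ray dose (Gy), as log2 scaled signal on the left and log2 processed signal without scaling on the right, with the mean and SD (n = 4) beside the points of each dose. On the left the arrays at 2 and 10 Gy lie above those at 0 Gy, and on the right 2 Gy has the highest mean and 10 Gy lies below 6 Gy.

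The order of the doses depended on the scaling between arrays. Before scaling, the mean signal of the 3 bright probes was 39.1, 60.1, 80.0 and 45.1 at 0 Gy and 97.0, 107, 70.8 and 90.4 at 2 Gy. At 6 Gy it was 90.2, 83.6, 47.6 and 101.6, and at 10 Gy 90.0, 69.7, 74.2 and 54.4. In these intensity units the doses overlapped, and their means in rising order of dose were 56.1 ± 18.2, 91.3 ± 15.2, 80.8 ± 23.3 and 72.1 ± 14.6 (SD, n = 4 each). Without scaling the log2 difference was 0.74 at 2 Gy, 0.52 at 6 Gy and 0.39 at 10 Gy, each against 0 Gy. It was -0.13 at 10 Gy against 6 Gy, the opposite sign of the scaled difference. The log2 scaling factor averaged 8.84, 8.95, 9.09 and 8.61 at 0, 2, 6 and 10 Gy, so 10 Gy had the lowest mean factor. Single arrays crossed that order: the factors ran from 8.16 to 8.88 at 10 Gy, against 8.44 to 9.20 at 0 Gy, and single arrays at 2 and 6 Gy reached down to 8.55 and 8.44.

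Across the array, 36 of 283 miRNAs (12.7%) passed the limma test at 2 Gy against 0 Gy, 55 (19.4%) at 6 Gy and 1 (0.353%) at 10 Gy, at an adjusted p under 0.05. miR-149-3p stays within these totals and is itself the 1 at 10 Gy, so that share holds no other miRNA. Nothing is read from its own place among them, since it was chosen on these values. No miRNA passed at 10 Gy against 6 Gy or at 6 Gy against 2 Gy, where limma gave 42 and 14 at an unadjusted p under 0.05.

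Of its 4 probes, 3 carried the signal and 1 did not. Each probe is printed in 10 spots on an array. A_25_P00013446 was well above background on 0 of 16 arrays, with processed signal between -1.91 and 1.57, and sat at the floor throughout. The negative control spots averaged 1.89 to 3.71 on the same scale. A_25_P00013447 ranged from 32.6 to 109.8, A_25_P00013448 from 39.1 to 85.6 and A_25_P00013449 from 45.2 to 134 over the 16 arrays, and all 3 were detected on every one. Spots of a probe on an array varied with a median coefficient of variation of 9.58% to 12.7% in the 3.

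Each of the 3 bright probes had its lowest mean at 0 Gy and its next lowest at 6 Gy, with differences of unequal size. A_25_P00013447 differed from 0 Gy by 0.80 at 2 Gy, 0.33 at 6 Gy and 0.77 at 10 Gy on the log2 scale. A_25_P00013449 differed by 0.64, 0.35 and 0.63 at those doses, and in both probes the arrays at 2 and 10 Gy were clear of those at 0 Gy. A_25_P00013448 differed by 0.44, 0.11 and 0.48, and its arrays at 2 and at 10 Gy overlapped those at 0 Gy. All 3 were higher at 10 Gy than at 6 Gy without overlap, by 0.43, 0.37 and 0.28 in the order of their numbers. Pearson's r between pairs of these probes over the 16 arrays was 0.79 to 0.98, given as a description since they share arrays and target.

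**Figure D2:**
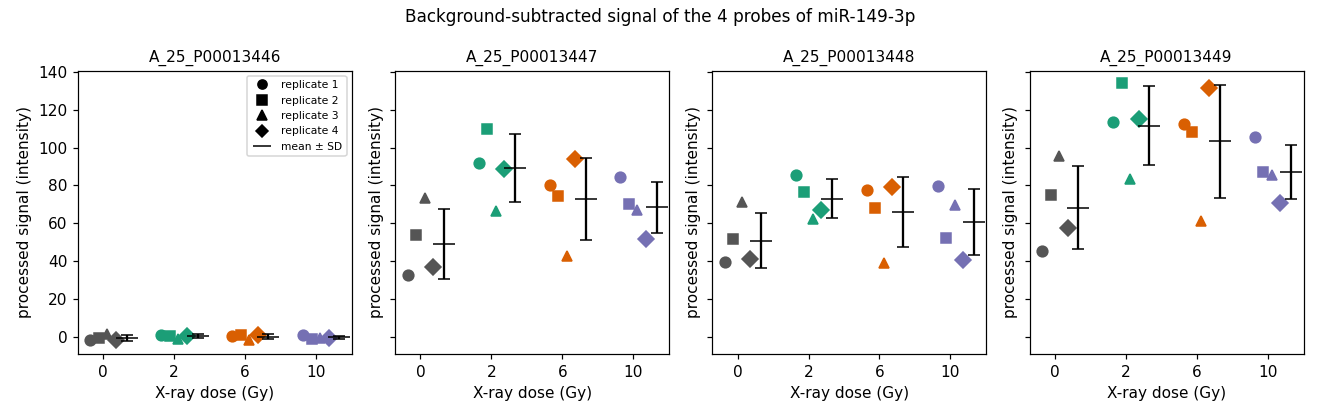
Background-subtracted processed signal (intensity, not scaled) of each of the 4 probes of miR-149-3p on the 16 arrays by X-ray dose (Gy), with the mean and SD (n = 4). The first probe stays near 0 at every dose, while the other 3 lie between 32.6 and 134 and have their lowest mean at 0 Gy.

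The 5p strand of the same hairpin moved the other way and was lower at 2 Gy than at 0 Gy. miR-149-5p gave -4.03, -4.0, -3.82 and -3.80 at 2 Gy, against -3.12, -3.71, -3.59 and -3.50 at 0 Gy. All 4 arrays at 2 Gy lay below all 4 at 0 Gy, and the difference was -0.43 ± 0.12 (SE, 95% interval -0.70 to -0.17, limma adjusted p = 0.0350). For comparison, 19 of 283 miRNAs (6.71%) were called lower at 2 Gy.

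At 6 Gy the 5p strand gave -3.53, -3.61, -3.78 and -3.92, which overlapped 0 Gy, and at 10 Gy -3.74, -3.74, -3.86 and -3.71. The difference from 0 Gy was -0.23 at 6 Gy (interval -0.50 to 0.04, limma adjusted p = 0.163). At 10 Gy it was -0.28 (interval -0.55 to -0.02, limma adjusted p = 0.195). Neither passed the threshold.

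The call at 2 Gy was lost with scaling over all probes, where the difference was -0.045 (adjusted p = 0.805), and in 5 other alternatives, and it was also lost on leaving out 1 of 5 arrays, namely replicates 1 and 4 of 0 Gy and replicates 1, 3 and 4 of 2 Gy. Its 2 probes disagreed: against 0 Gy, A_25_P00012235 differed by -0.71, -0.54 and -0.35 at 2, 6 and 10 Gy, and A_25_P00012234, the dimmer, by -0.16, 0.08 and -0.22.

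In the difference between the strands on the same array the scaling factor cancels, except where a probe reaches the floor. The log2 level of 3p minus 5p was -0.05, 0.40, 0.82 and 0.31 at 0 Gy and 1.66, 1.30, 1.40 and 1.36 at 2 Gy. It was 0.60, 0.74, 0.88 and 1.24 at 6 Gy and 1.34, 1.12, 1.39 and 1.28 at 10 Gy. Every array at 2 and 10 Gy was above every array at 0 Gy, while 6 Gy overlapped 0 Gy.

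The mean strand difference was 0.37 ± 0.36, 1.43 ± 0.16, 0.87 ± 0.27 and 1.28 ± 0.12 at 0, 2, 6 and 10 Gy (SD, n = 4 each). Since different probes are compared, its height has no meaning and only its change does. The change against 0 Gy was 1.06 at 2 Gy, 0.50 at 6 Gy and 0.91 at 10 Gy, and over 24 alternatives it stayed positive, at 0.46 to 1.21, 0.24 to 0.65 and 0.36 to 1.06. Those that leave out an array of a dose outside the comparison could not change it. Without scaling the changes were 1.06, 0.50 and 0.89, and with normexp background correction they were smaller, at 0.46, 0.24 and 0.36. The change contains the 3p level that chose the miRNA, so no test is given.

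**Figure D3:**
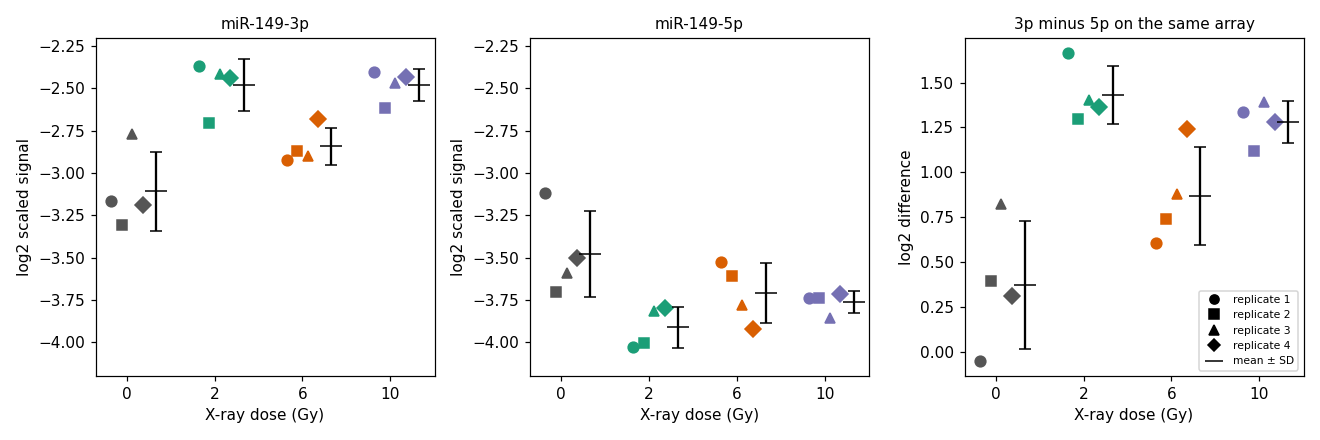
Levels of miR-149-3p and miR-149-5p (log2 scaled signal) and the difference 3p minus 5p on the same array (log2), for 16 arrays by X-ray dose (Gy), with the mean and SD (n = 4). The mean of the 3p strand is higher and that of the 5p strand lower at 2 and 10 Gy than at 0 Gy, and the strand difference separates those doses from 0 Gy without overlap.

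The position of the arrays followed dose. Per the file headers, slide 1 held 0 Gy in columns 1 and 2 and 2 Gy in columns 3 and 4, and slide 2 held 6 Gy in columns 1 and 2 and 10 Gy in columns 3 and 4. The doses with the high miR-149-3p levels were therefore exactly those in columns 3 and 4, and dose and column cannot be told apart within a slide. Slide and the pair of doses on it cannot be told apart either. The hybridisation spike-in, an RNA added before hybridisation, was 3.99 to 4.03 at 2 Gy and 4.10 to 4.36 at 0 Gy on a log10 scale, without overlap. At 10 Gy it was 3.94 to 4.11, against 3.90 to 4.27 at 6 Gy. Its part in the level of miR-149-3p was not tested.

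**Figure D4:**
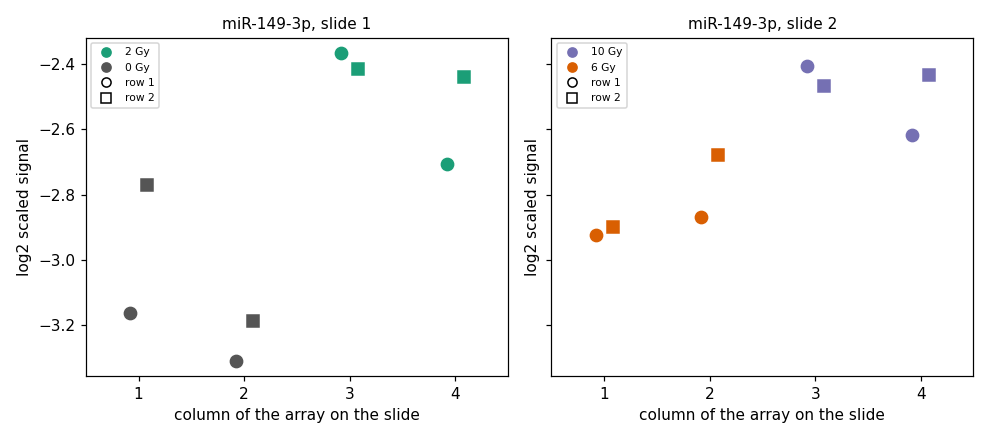
Level of miR-149-3p (log2 scaled signal) by the column of the array on its slide, with slide 1 (2 and 0 Gy) and slide 2 (10 and 6 Gy) side by side and marker shape for the row. On both slides all arrays in columns 3 and 4 are above all arrays in columns 1 and 2.

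The labelling spike-in, an RNA added before labelling, was in the scanner software's range on 3 of 16 arrays. Its lowest value, -0.70 on the log10 scale, was found on 2 arrays, 0 Gy replicate 3 and 6 Gy replicate 4, which had the highest miR-149-3p level of their doses. The value was identical on both, and whether it is a lower limit of the measure was not tested. It enters the correlations and the covariate as a measured value. Over the 16 arrays Pearson's r of the level with this spike-in was -0.27 (permutation p = 0.317, adjusted over 3 relations 0.476) and Spearman's rho was -0.31 (permutation p = 0.235, adjusted 0.352). Without the 2 arrays farthest from its median r was -0.42 (permutation p = 0.141, adjusted 0.423). Within slide 1 r was -0.57 (exact permutation p = 0.146, adjusted 0.219) and within slide 2 it was 0.38 (exact permutation p = 0.364, adjusted 0.546). In all of these the levels were permuted across doses. Their p-values therefore take in the dose differences that chose the miRNA and are given as a description.

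As deviations from the dose means the relation was closer, with r = -0.82 (permutation p = 0.00014, adjusted 0.00042) and rho = -0.69 (permutation p = 0.00382, adjusted 0.0115). In these deviations slide 1 alone gave r = -0.85 (permutation p = 0.0061), and slide 2 alone gave r = -0.74 (permutation p = 0.0337). Deviations are centred within a dose but were permuted across doses, so their p-values are approximate and may be too small. The relation rested on the 2 arrays of lowest spike-in, since without them r was -0.44 (permutation p = 0.117). Slide 1 held 0 Gy replicate 3 and slide 2 held 6 Gy replicate 4, so each slide's r includes such an array. Without those 2 arrays miR-149-3p differed from 0 Gy by 0.74 at 2 Gy and 0.74 at 10 Gy.

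The other 2 relations were with the scaling factor, where r was -0.17 and rho -0.15 (permutation p = 0.527 and 0.579, the same after adjustment), and with the number of detected miRNAs, 242 to 358 an array. In the second r was -0.50 (permutation p = 0.0479, adjusted 0.144) and rho -0.44 (permutation p = 0.0881, adjusted 0.264). Without the 2 arrays farthest from the median the r values were -0.07 for the scaling factor and -0.26 for the number detected. There slide 1 alone gave r = -0.70 (exact permutation p = 0.0583), while slide 2 alone gave r = -0.07 (exact permutation p = 0.853). Here too levels were permuted across doses, so these p-values take in the dose differences that chose the miRNA.

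**Figure D5:**
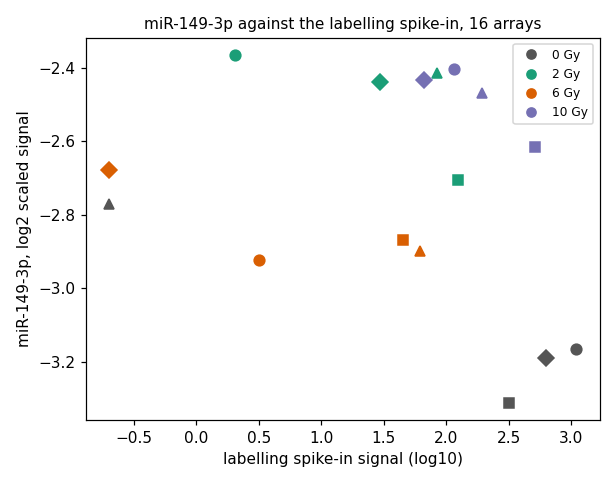
Level of miR-149-3p (log2 scaled signal) against the labelling spike-in signal (log10) for the 16 arrays, coloured by dose, with marker shape for the replicate number. The 2 arrays at the left edge, 0 Gy replicate 3 and 6 Gy replicate 4, are the highest of their doses.

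The miRNAs whose level was most like that of miR-149-3p over the 16 arrays were miR-3656 (r = 0.89), miR-371a-5p (0.87), miR-516a-5p (0.84), miR-3605-5p (0.82) and miR-373-5p (0.80). The median r over the other 282 was 0.11. These r values are a description, since all miRNAs share arrays and scaling. miR-516a-5p, from the primate chromosome 19 cluster, differed from 0 Gy by 0.94 at 2 Gy, 0.61 at 6 Gy and 0.67 at 10 Gy. miR-371a-5p, from a cluster active in embryonic stem cells, differed by 0.58, 0.26 and 0.42 at those doses. miR-3656 differed by 0.34, 0.13 and 0.34.

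By deviations from the dose means the closest were miR-1224-5p (r = 0.96), miR-3162-5p (0.94) and miR-1225-5p (0.94), where the median r of deviations over the other 282 was 0.40. Their r over levels was lower, at 0.77, 0.55 and 0.53, and that of miR-1225-5p became -0.66 under quantile normalization. miR-149-5p had r = -0.63 over levels and -0.13 over deviations.

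A fixed list of 23 names taken as guanine-rich was tested in full. The list was chosen with earlier results of these data known, so its counts are not independent of them. It held 5 called higher and 0 lower at 2 Gy against 0 Gy, where 6.01% of all miRNAs were called higher. At 6 Gy it held 7 higher and 1 lower, with 6.01% and 13.4% of all miRNAs called. At 10 Gy it held 0 of 23. The only miRNA called there (0.353% of all) was miR-149-3p itself, chosen on these values, so nothing is read from that call. At that dose 63 miRNAs had an unadjusted p under 0.05 in limma. The list's median difference was 0.26, 0.35 and 0.16 at 2, 6 and 10 Gy, against 0.03, 0.12 and -0.02 over all 283, and without scaling the median at 10 Gy turned to -0.08. Under quantile normalization the list's medians at 2 and 6 Gy were 0.088 and 0.067, below the 0.14 and 0.13 over all 283. It then held 3 higher and 2 lower at 2 Gy, against 32 and 16 of all, and 5 higher and 2 lower at 6 Gy, against 49 and 33. Scaling over all probes gave 16 and 21 of 23 higher at 2 and 6 Gy, against 111 and 148 of all 283, and without scaling limma called 0 of the list at either dose. The counts hung on single arrays: without 0 Gy replicate 1 the list held 0 calls at 2 and 6 Gy, and without 0 Gy replicate 3 it held 15 higher at each, with 5 at 10 Gy. In limma the count at 2 Gy was also 0 on leaving out replicate 1, 3 or 4 of 2 Gy, 9 higher without its replicate 2, and 3 higher without any one of replicates 2 and 4 of 0 Gy, replicate 1 of 6 Gy and replicates 1 and 3 of 10 Gy. The count at 6 Gy was 0 in limma on leaving out replicate 2 or 4 of 0 Gy or replicate 1 or 4 of 6 Gy, and 1 to 3 higher without any one of replicates 1, 3 and 4 of 2 Gy, replicate 3 of 6 Gy and replicates 1 and 3 of 10 Gy. Over all 283 miRNAs limma called 121, 143 and 43 at 2, 6 and 10 Gy without 0 Gy replicate 3, in either direction. It called 0 of them at 6 Gy without 0 Gy replicate 1, and 0 at 2 Gy without 2 Gy replicate 1. Leaving out 1 array thus moved the totals over all 283 from 0 to 121 at 2 Gy and from 0 to 143 at 6 Gy. The swings of the list's counts are therefore not read as particular to the list. With all arrays, 9, 14 and 8 of the 23 had an unadjusted p under 0.05 at 2, 6 and 10 Gy, against 99, 118 and 63 of all 283. Without the 2 arrays of lowest labelling spike-in the list held 15 higher at 2 Gy, 13 higher and 2 lower at 6 Gy, and 8 higher and 1 lower at 10 Gy. Of all 283, 65 were then called higher and 72 lower at 2 Gy, 64 and 71 at 6 Gy, and 40 and 22 at 10 Gy. Only 7 of the 23 names had a mouse entry, of which 4 were at least 50% guanine, and the composition of names without an entry was not checked. Called members were among those below 50%: the mouse entries of miR-134-5p and miR-150-3p had 45.5% guanine and that of miR-188-5p 38.1%. The entries of miR-483-5p and miR-711 had 50%.

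Of its members, miR-765 rose by 0.82 at 2 Gy (limma adjusted p = 0.0190) and by 0.61 at 6 Gy (adjusted p = 0.0407), and its difference at 10 Gy was 0.58 (adjusted p = 0.0822). miR-134-5p, a brain-enriched miRNA of the imprinted chromosome 14 cluster, rose by 0.49 at 2 Gy (adjusted p = 0.0283) and 0.55 at 6 Gy (adjusted p = 0.0304), with 0.52 at 10 Gy (adjusted p = 0.0552). miR-711 rose by 0.61 at 2 Gy (adjusted p = 0.0417) and 0.66 at 6 Gy (adjusted p = 0.0353). miR-188-5p rose by 0.45 at 2 Gy (limma adjusted p = 0.0333). miR-483-5p, from an intron of IGF2, rose by 0.62 at 2 Gy (adjusted p = 0.0417), and miR-1207-5p, from the PVT1 locus, by 0.45 at 6 Gy (adjusted p = 0.0407). Each of these calls was lost without 0 Gy replicate 1, and every one was lost without at least 4 of the 16 arrays, each left out alone. In the 6 miRNAs the differences at 10 Gy, 0.36 to 0.58, did not pass. With the slide row as a block, miR-134-5p also passed at 10 Gy (limma adjusted p = 0.0265), miR-1207-5p at 2 Gy (0.0467) and miR-483-5p at 6 Gy (0.0405).

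Of 18 p53-responsive miRNAs on a list, 7 were detected on any array and 5 were tested. None passed in limma at 2, 6 or 10 Gy in 15 tests, whose adjusted p ran from 0.0514 to 0.938, with 3, 3 and 0 of the 5 at an unadjusted p under 0.05. With replicate 3 of 0 Gy left out, limma called 3 of the 5 lower at 2 Gy and 4 at 6 Gy. In that setting it called 121 and 143 of all 283 in either direction. Without 2 Gy replicate 2 it called 3 at 2 Gy and 2 at 6 Gy, and without 6 Gy replicate 2 it called 3 at 6 Gy. With 1 array left out, calls over all 283 ran from 0 to 121 at 2 Gy and from 0 to 143 at 6 Gy. Nothing particular to the p53 list is therefore read from these counts. Without the 2 arrays of lowest labelling spike-in it called all 5 lower at 2 Gy and 3 at 6 Gy. Of all 283, 72 and 71 were then called lower. With all arrays, scaling over all probes called 2 lower at 6 Gy, against 29 of all miRNAs, and quantile normalization called 1, against 33. Total gene signal called 2 at 6 Gy, against 40 of all. The slide row as a block called 2, a count given without its total over all, so nothing is read from it. The spike-in covariate called 1 lower at 2 Gy, against 41 of all. All 5 differences were below 0 at each dose, with medians of -0.82, -1.96 and -0.53, and miR-22-3p turned to 0.14 at 10 Gy when scaled over all probes. Part of this lay near the floor of -4.60: miR-34a-5p was detected on 3 of 4 arrays at 2 Gy and 1 of 4 at 6 Gy, against 4 of 4 at 0 Gy, and 3 of its 4 arrays at each of 2 and 6 Gy were at -4.60 to -4.39. miR-200c-3p was at the floor on 2 arrays at 6 Gy and miR-141-3p on 1, so sizes there are limited by the floor, as is the median at 6 Gy, which is the miR-34a-5p value. miR-34a-5p, a well-known p53 target, differed by -1.76 at 2 Gy (adjusted p = 0.141), -1.96 at 6 Gy (adjusted p = 0.0867) and -0.62 at 10 Gy (adjusted p = 0.663). miR-200c-3p differed by -2.14, -2.50 and -0.74 and miR-141-3p by -0.82, -2.07 and -0.53. miR-145-5p differed by -0.77, -0.64 and -0.26 and miR-22-3p by -0.76, -0.71 and -0.07.

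The epithelial markers miR-200c-3p and miR-141-3p were detected on 15 of 16 arrays, miR-200b-3p on 8 and miR-200a-3p on 4. The intestinal miR-192-5p, miR-194-5p and miR-215-5p were detected on none. Of 6 blood and liver miRNAs, miR-486-5p was detected on 16 arrays, miR-122-5p on 4 and the erythroid miR-451a and miR-144-3p and the leukocyte miR-142-3p and miR-223-3p on none. Of 4 muscle miRNAs, miR-206 and miR-133a-3p were detected on 16 arrays, miR-133b on 13 and miR-1-3p on none. None of the 6 tested markers of the 3 lists passed at any dose in limma, where 5 of 18 tests had an unadjusted p under 0.05. The replicate block changed this: limma then called miR-200c-3p lower at 2 Gy (adjusted p = 0.0481) and 6 Gy (0.0289), and miR-141-3p lower at 6 Gy (0.0397). Of all 283, 39 were called lower at 2 Gy with that block. With the slide row as a block, limma called both epithelial markers lower at 6 Gy, miR-200c-3p at an adjusted p of 0.0377 and miR-141-3p at 0.0278. Without the 2 arrays of lowest spike-in limma called 3 lower at 2 Gy and 3 lower and 1 higher at 6 Gy. Of all 283 miRNAs it then called 72 lower at 2 Gy, and 71 lower and 64 higher at 6 Gy. Scaling over all probes called 3 higher and 2 lower at 6 Gy, against 148 and 29 of all, and miR-486-5p higher at 2, 6 and 10 Gy. Quantile normalization also called miR-486-5p higher at those doses. The markers' part in the level of miR-149-3p was not tested.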

How the data were processed

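Each of 16 single-colour Agilent miRNA arrays was read as deposited. Per the file headers, Feature Extraction 11.5.1.1 had made the processed signal, an intensity with local background subtracted and no scaling between arrays; other deposited columns, per the file headers, hold flags and names. Each array had 56044 spots, 2164 of them controls. Control and outlier-flagged spots (3.27 to 4.90%) were left out and no spot was saturated. Detection of a probe required the scanner software's above-background flag on more than 0.5 of its spots. Arrays were scaled to the 75th percentile of 518 probes detected throughout, floored at 0.0412 (log2 -4.60; 4.17% of values) and taken to log2. A miRNA was the mean of its probes detected on all 4 arrays of a dose, which left 592 probes and 283 miRNAs. limma 3.58.1 (lmFit, eBayes) in R 4.3.3 was fitted to all arrays with a mean per dose and Benjamini-Hochberg adjustment over the 283. P-values measure the spread between 4 cultures a dose, and the number of arrays limits the precision. Correlations used 100000 permutations, or all 40320 orders of 8 arrays. The fit was tested on simulated arrays with the 0 Gy means and the within-dose spread of all 16 arrays (283 miRNAs, 60 changed at 2 Gy). Of steps of 1, 84.2% were recovered, and of steps of 2, 93.7%, with 3.78% false calls. The simulated noise was independent between miRNAs, while deviations on the real arrays are shared, so these shares need not hold for the real data. Figures used Python 3.11.15 and matplotlib 3.10.9. The miRNA and the lists were chosen with earlier results of these data known. Named were all probes of miR-149-3p, miR-149-5p, the 5 miRNAs of most similar level and 3 of most similar deviation, up to 6 called guanine-rich miRNAs and tested p53-list members; the rule for human miRNAs of the same seed could not be applied, and the guanine-rich list was one of fixed names. Same-numbered replicates were checked for pairing, and 24 correlations of their deviations ran from -0.76 to 0.87, 14 of them over 0.1. Replicate 2 gave 0.59 to 0.87 for every pair of doses. Replicate 4 gave 0.67 to 0.85 among the irradiated doses and -0.76 to -0.58 against 0 Gy, and replicates 1 and 3 gave both signs. The main fit did not treat the numbers as pairs, and a fit with them as a block is among the alternatives. The alternatives changed scaling, background, summary, floor, outliers, blocks, covariate, probes and arrays.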

Additional observations from a re-analysis of the deposited data

Results flagged for a closer look

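Among 104 groups of 4 arrays, 11 held 1 array far from the other 3, with a gap over 0.829 of the group's range, where chance marks about 1 in 20. For the probe A_25_P00013447, 0 Gy replicate 3 was at -2.89 and the other 3 between -3.45 and -3.42. 2 Gy replicate 2 was the distant array in 7 of the groups. It was high in miR-34a-5p, at -1.86 (others -4.60 to -4.39), and in miR-200c-3p, at -1.22 (others -3.82 to -3.66). It was low in miR-483-5p, at 1.69 (others 2.02 to 2.05), in miR-3656, at 2.24 (others 2.58 to 2.63), and in miR-1224-5p, at -0.35 (others -0.14 to -0.11). It was also low in miR-3162-5p, at 3.24 (others 3.57 to 3.60), and in miR-1225-5p, at 4.70 (others 5.04 to 5.05). 2 Gy replicate 2 also had the lowest miR-149-3p level of its dose, but short of that gap. The other 3 were miR-34a-5p on 6 Gy replicate 2, at -2.49 (others -4.60 to -4.40), miR-141-3p on 10 Gy replicate 4, at -1.72 (others -0.82 to -0.65), and miR-134-5p on 0 Gy replicate 1, at 1.64 (others 2.07 to 2.14).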

How the results depend on the processing

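The difference of miR-149-3p from 0 Gy stayed positive under every alternative run, at 0.26 to 1.02 at 2 Gy, 0.049 to 0.65 at 6 Gy and 0.38 to 0.83 at 10 Gy. Some of these could not change it: the blocks, a slide alone, and leaving out an array of a dose outside the comparison. Scaling over all probes gave 1.02, 0.65 and 0.83 at 2, 6 and 10 Gy, no scaling 0.52 at 6 Gy and 0.39 at 10 Gy, and normexp 0.26, 0.049 and 0.38. At 2 Gy, probe A_25_P00013447 alone gave 0.80 and A_25_P00013448 alone 0.44. The difference of 10 Gy against 6 Gy was 0.19 with scaling over all probes, -0.13 without scaling and 0.52 once the labelling spike-in was a covariate. Leaving out 1 array gave 0.56 to 0.74 at 2 Gy, 0.20 to 0.38 at 6 Gy, 0.56 to 0.74 at 10 Gy and 0.34 to 0.42 for 10 Gy against 6 Gy. For miR-149-5p at 2 Gy, the call was lost with scaling over all probes (-0.045), no scaling (-0.33), quantile normalization (-0.22), normexp (-0.20), total gene signal (-0.41) and slide 1 alone (-0.43), with limma adjusted p of 0.0538 to 0.805, and leaving out 1 array gave -0.51 to -0.31. Its sign turned at 6 Gy with scaling over all probes (0.15) and with no scaling (0.020), and at 10 Gy with normexp (0.012); leaving out 1 array gave -0.31 to -0.11 and -0.36 to -0.16. The relation with the labelling spike-in was -0.82 in deviations and 0.38 on slide 2, and that with the scaling factor 0.058 on slide 1. miR-22-3p at 10 Gy turned to 0.14 with scaling over all probes and ran from -0.23 to 0.029 with 1 array left out, and r of miR-1225-5p became -0.66 under quantile normalization.

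miRNAs called at 2 Gy (36; 17 higher, 19 lower) numbered 129 with scaling over all probes (111 higher, 18 lower), 0 in limma without scaling (where 36 had an unadjusted p under 0.05), 19 by normexp, 68 with the replicate block, 0 in limma on slide 1 alone (69 unadjusted), 74 with the spike-in covariate and 137 without the 2 arrays of lowest spike-in. At 6 Gy (55; 17 higher, 38 lower) they numbered 177 with scaling over all probes (148 higher, 29 lower), 0 in limma without scaling (62 unadjusted), 34 with normexp, 86 with total gene signal, 29 with the covariate and 135 without those 2 arrays. At 10 Gy (1) they numbered 22, 0 without scaling (22 unadjusted in limma), 11 with quantile normalization (2 Gy there had 32 higher and 16 lower, 6 Gy 49 and 33), 0 with normexp (37 unadjusted), 3 with outlier spots kept, 7 with the replicate block, 11 with the slide row as a block, 59 with the covariate and 62 without the 2 arrays. The removal of those 2 arrays and the splits of the spike-in deviations were chosen after seeing the data. With 1 array left out the counts ran from 0 to 121 at 2 Gy, 0 to 143 at 6 Gy and 0 to 43 at 10 Gy, each highest without 0 Gy replicate 3. The cause was not tested. Scaling over all probes moved the median of all miRNAs to 0.40, 0.47 and 0.18 at 2, 6 and 10 Gy, against 0.03, 0.12 and -0.02. The replicate block gave the same miR-149-3p differences (0.63, 0.27 and 0.63), as it had to, since every dose holds each replicate number. Of the p53 list and markers it called miR-200c-3p (limma adjusted p = 0.0481) and miR-22-3p lower at 2 Gy, and miR-200c-3p (0.0289), miR-141-3p (0.0397) and miR-34a-5p (0.0425) lower at 6 Gy. It also called miR-134-5p higher at 10 Gy (0.0361) and miR-188-5p higher at 6 Gy (0.0467). With no filter on dim probes only the miR-149-3p differences could be had. The dim probe A_25_P00013446 alone gave no value.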
